A study of Mus musculus with 6 samples.

Results

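The genes described here are those for which the array table held both a coding transcript, with a RefSeq accession that starts with NM_, and a noncoding transcript, with an accession that starts with NR_. A gene was kept when at least 1 of its NR rows differed in value from every one of its NM rows, so that the transcripts could be told apart on the 6 arrays. This left 154 genes of the 162 with both kinds of row, out of 20263 named genes in the table. All 154 are annotated as protein coding. They held 265 NM rows, 243 of them distinct in value within their gene, and 176 NR rows, of which 167 were distinct from each other and from the NM rows.

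The cells were neural stem cells of CD-1 albino mouse embryos at E14.5, grown as neurospheres, clusters of such cells that grow in suspension, under conditions that keep them proliferating. They were nucleofected, a transfection by electrical pulse, with a miR-128 mimic in 3 biological replicates or with miR-Control in 3 others, and total RNA was taken after 72 h and put on exon arrays. Neural stem cells do not normally express miR-128, according to the study's design, so that the mimic supplies a microRNA that is otherwise missing. The values are log2 expression values, 1 per transcript row and array, and a difference of 1 is a doubling. The design text asked which genes and transcript isoforms differ between the groups.

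A microRNA guides the Argonaute complex to messenger RNAs that pair with its seed, the bases near its 5′ end, and these are then repressed. The study's authors have linked miR-128 to nonsense-mediated decay (NMD), the pathway that removes transcripts with a premature stop codon and so keeps many aberrant or alternatively spliced transcripts scarce. RefSeq gives an NR accession to transcripts of coding genes that are not expected to yield the protein, and a common reason is a reading frame that makes the transcript a candidate for NMD. If a decay-prone transcript gains stability, its level moves relative to the coding transcripts of its own gene, which is what the NR minus NM difference measures. No transcript sequences were used, so whether any of these NR transcripts is decay-prone was not checked.

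The mature miR-128-3p sequence is shown because it is the guide strand by which miR-128 is known. The labels do not say which arm or sequence the mimic had. In RefSeq's GRCm38.p6 table both mouse miR-128 genes give the same 3p strand, with the seed (bases 2 to 8) in capitals:
mmu-miR-128-3p: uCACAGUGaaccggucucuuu

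The arrays were alike in depth of signal, with median log2 values of 7.40 to 7.54 and correlations of 0.987 to 0.995 between arrays. The miR-Control replicate 3 array stood apart, with the narrowest interquartile range, 2.87 against 2.98 to 3.22. The 9 listed neural stem and radial glia genes lay at a median percentile of 95.1 among all rows, with Prom1 the lowest at 20.9, and 6 microglia genes at 31.1. Rows differ in probe response, so these ranks are descriptive. The summed log2 values of 7 oligodendrocyte lineage genes were 60.1 to 61.1 on the control arrays and 61.7 to 62.8 on the miR-128 arrays, and their part in the results below was not tested.

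Many NR rows followed the NM rows of their gene very closely. The distance of an NR row from its nearest NM row, taken as the root mean square over the 6 arrays, had a median of 0.09 and ran from 0.0064 for Ufd1 and 0.0066 for Chpt1, just inside the rule, to 2.42 for Zfp672. For 8 genes each NR row was identical to an NM row, a distance of 0, and these were left out: Cox18, Cyp3a25, Lilra6, Lrrc57, Phf21b, Slx1b, Taf1b and Tyms. Of the 167 distinct NR rows, 87 lay under 0.1 from an NM row, 80 at 0.1 or more, and 10 at 1 or more. Transcripts of a gene share exons and can share probes, and no source used here lists the probes behind each row. A row that shares most of its probes with an NM row cannot show a separate change, so such a change can be seen mainly at larger distance. The difference tested below is taken from the mean of a gene's NM rows, not from the nearest one. In genes with several NM rows it can therefore be large at small distance, and it then also holds differences among the NM rows. The Gnas NR row lay 0.010 from the nearest of 7 NM rows but 1.98 above their mean with miR-Control. For Zc3h14, with 4 NM rows, these were 0.044 and 0.75. Several of the farthest NR rows are faint, however. The 10 at 1 or more had mean values from 5.36 for Zfp672 to 10.47 for Srsf3, where array medians were 7.40 to 7.54.

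No NR row shifted relative to the NM rows of its gene by a test that allows for the number of differences examined. Of 167 NR minus NM differences 83 were higher with miR-128 and 84 were lower, and their median change was -0.00016 on the log2 scale. The middle 50% of them lay between -0.021 and 0.018. For comparison, 4915 differences among the NM rows of 2827 genes had a median change of 0.00017, with middle values of -0.017 to 0.017.

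The test was limma's moderated test on the within-array differences, two-sided, with Benjamini-Hochberg adjustment over all 5082 differences. In it 0 of 167 NR minus NM differences passed an adjusted p of 0.05, where the share passing over all differences was 0%, and the lowest adjusted p was 0.616, for Ppp1r12b. At an unadjusted p under 0.05 there were 5 of 167, or 2.99%, where all differences gave 4.57% and NM minus NM differences 4.62%. The groups did not overlap in 17 of 167, or 10.2%, where all differences gave 10.1%. All of these shares lie close to or below their background. The 5 became 3 without miR-128 replicate 1, 9 without miR-Control replicate 1, and 8 without miR-Control replicate 3, miR-128 replicate 2 or miR-128 replicate 3. The share over all differences in these settings is not given, so the changes in count are descriptive.

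The intervals were narrow for most members and widest at large distance. The median spread of an NR minus NM difference between arrays of a group was 0.03 (SD), against 0.15 for the NR rows themselves. It was 0.023 for NR rows under 0.1 from an NM row, 0.04 for those at 0.1 or more and 0.13 for the 10 at 1 or more, and the part of shared probes in this was not tested. In 148 of 167 differences the 95% interval stayed within 1.2-fold in both directions, and in 1 of them, Gpr146, it reached 1.5-fold. Among the 80 NR rows at a distance of 0.1 or more 61 stayed within 1.2-fold, and among the 10 at a distance of 1 or more 2 did. With 3 arrays a group, precision is bounded by that number.

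**Figure D1:**
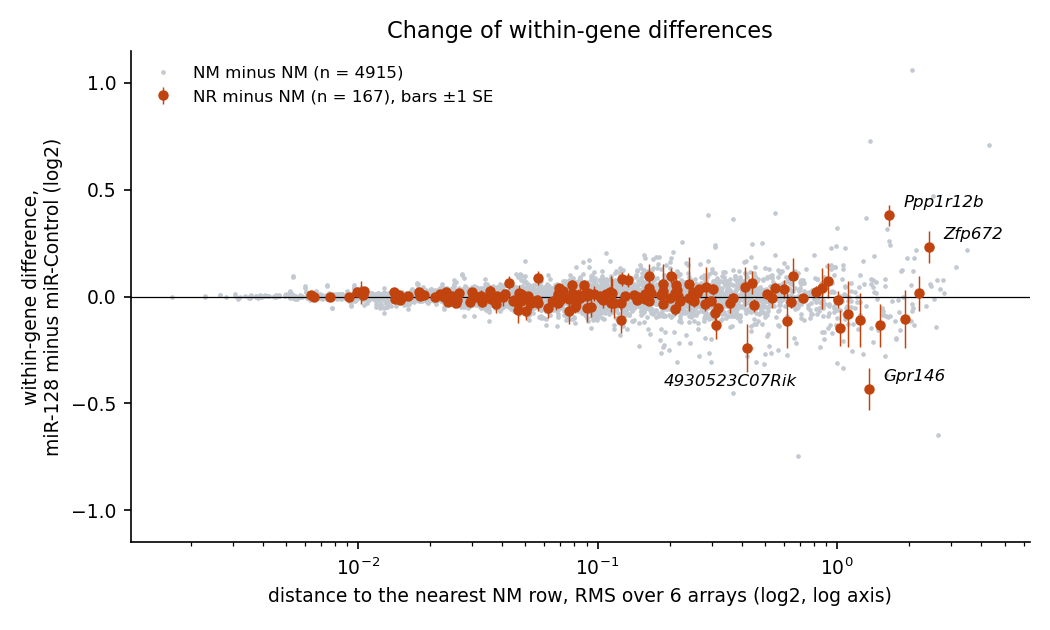
Change of each within-gene difference with miR-128 (y axis, log2) against the distance of the row from its nearest NM row (x axis, log2, log axis), for 167 NR minus NM differences (red, bars ±1 SE) and 4915 NM minus NM differences (grey). Both kinds of point spread more at larger distance, and the NR points farthest from 0 are Gpr146 at -0.43, Ppp1r12b at 0.38, 4930523C07Rik at -0.24 and Zfp672 at 0.23.

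The changes of the NR row and of the NM mean went the same way in 151 of 167 comparisons, both lower in 81 and both higher in 70. Across the 167 NR rows the 2 changes had a Pearson r of 0.92, given as a description, since the points share arrays and many share probes. Among the 87 NR rows under 0.1 from an NM row r was 0.99, among the 80 at 0.1 or more it was 0.80, and among the 10 at 1 or more it was -0.13. In the last set 5 of 10 pairs had the same sign.

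**Figure D2:**
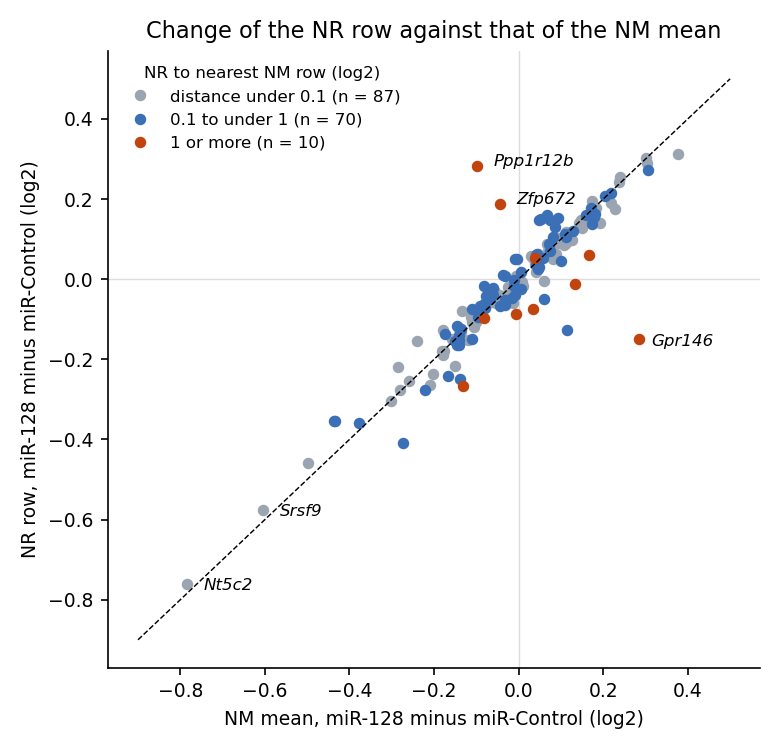
Change of the NR row (y axis, miR-128 minus miR-Control, log2) against the change of the mean of its gene's NM rows (x axis, log2) for 167 NR rows, coloured by distance from the nearest NM row; the dashed line marks equal change. Most points lie close to the line, down to Nt5c2 at -0.76 and -0.78, while Ppp1r12b, Zfp672 and Gpr146 lie off it.

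Ppp1r12b, which encodes a targeting subunit of myosin phosphatase, had the smallest p of the NR minus NM differences. Its NR row (NR_015606) read 6.91, 6.93 and 7.09 on miR-Control arrays 1 to 3, against 7.14, 7.27 and 7.37 on miR-128 arrays 1 to 3, the order used throughout. Its single NM row read 8.67, 8.84 and 8.89 with miR-Control against 8.65, 8.69 and 8.76 with miR-128. The NR row was therefore higher on all 3 miR-128 arrays than on any control, while the NM values of the groups overlap.
The NR minus NM difference was -1.77, -1.90 and -1.80 with miR-Control against -1.51, -1.42 and -1.39 with miR-128, a change of 0.38 (SE 0.05, 95% interval 0.26 to 0.50), or 1.30-fold. limma gave an unadjusted p of 0.000403, which adjustment raised to 0.616. In level this NR row lay at percentile 44.0 among all rows. The offset between an NR and an NM row depends on their probes and is no ratio of transcript amounts. The median size of the change was 0.014 for NR rows under 0.1 from an NM row, 0.031 at 0.1 or more and 0.12 at 1 or more.

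Gpr146, an orphan receptor of the G protein-coupled class, went the other way. Its NR row (NR_033147) read 6.81, 6.77 and 6.75 with miR-Control against 6.64, 6.59 and 6.64 with miR-128. The mean of its 2 NM rows read 8.10, 7.94 and 7.86 with miR-Control against 8.34, 8.01 and 8.39 with miR-128, so that these overlap while the NR values do not. The difference changed by -0.43 (SE 0.10, 95% interval -0.68 to -0.19), or 1.35-fold, with an unadjusted p of 0.0061 and an adjusted p of 0.832 in limma. The change was made of an NR row at -0.15 and an NM mean at 0.28, so the larger part came from the NM rows. Alone, the NR row had an unadjusted p of 0.148 in limma. The NM row of smaller p, at 0.29, had 0.049. In level the NR row lay at percentile 36.3 among all rows.

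Zfp672, a zinc finger gene, had the NR row farthest from its NM row. The NR row (NR_028331) read 5.25, 5.54 and 5.02 with miR-Control against 5.55, 5.47 and 5.34 with miR-128, and the NM row 7.90, 7.95 and 7.56 against 7.79, 7.73 and 7.76. Both rows overlap between the groups. The NR row was faint, at percentile 15.2 among all rows. The difference changed by 0.23 (SE 0.08, unadjusted p = 0.0268, adjusted p = 0.971 in limma). The groups of the difference are separate by a small margin: the lowest miR-128 value was -2.415, in replicate 3, and the highest miR-Control value -2.416, in replicate 2.

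The other 2 differences with an unadjusted p under 0.05 were small. Zfp57, a zinc finger gene that maintains imprints, changed by 0.09 (SE 0.03) and Fxyd2, a regulator of the sodium pump, by 0.10 (SE 0.04), and the groups overlap in both. In Zfp57 the NR row was at -0.15 and the NM mean at -0.24, so both were lower with miR-128. In Fxyd2 the NR row was at 0.15 and the NM mean at 0.05. In the rest of the 10 NR rows that lie at a distance of 1 or more, Svip changed by 0.02 (SE 0.08), Sec14l1 by -0.11 (SE 0.13), Ndufs6 by -0.13 (SE 0.10) and Alg13 by -0.11 (SE 0.13). Srsf3 was at -0.08 (SE 0.15), Fbxo34 at -0.15 (SE 0.09) and Prmt6 at -0.015 (SE 0.041). Of these 7, Fbxo34 alone had groups that do not overlap. Counting all 10, 7 were lower and 3 higher with miR-128. An unadjusted p under 0.05 was found for 3 of the 10 and separate groups for 4, where NM minus NM differences at this distance gave 12.4% for each; the 10 are few, and none passed the adjusted threshold.

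**Figure D3:**
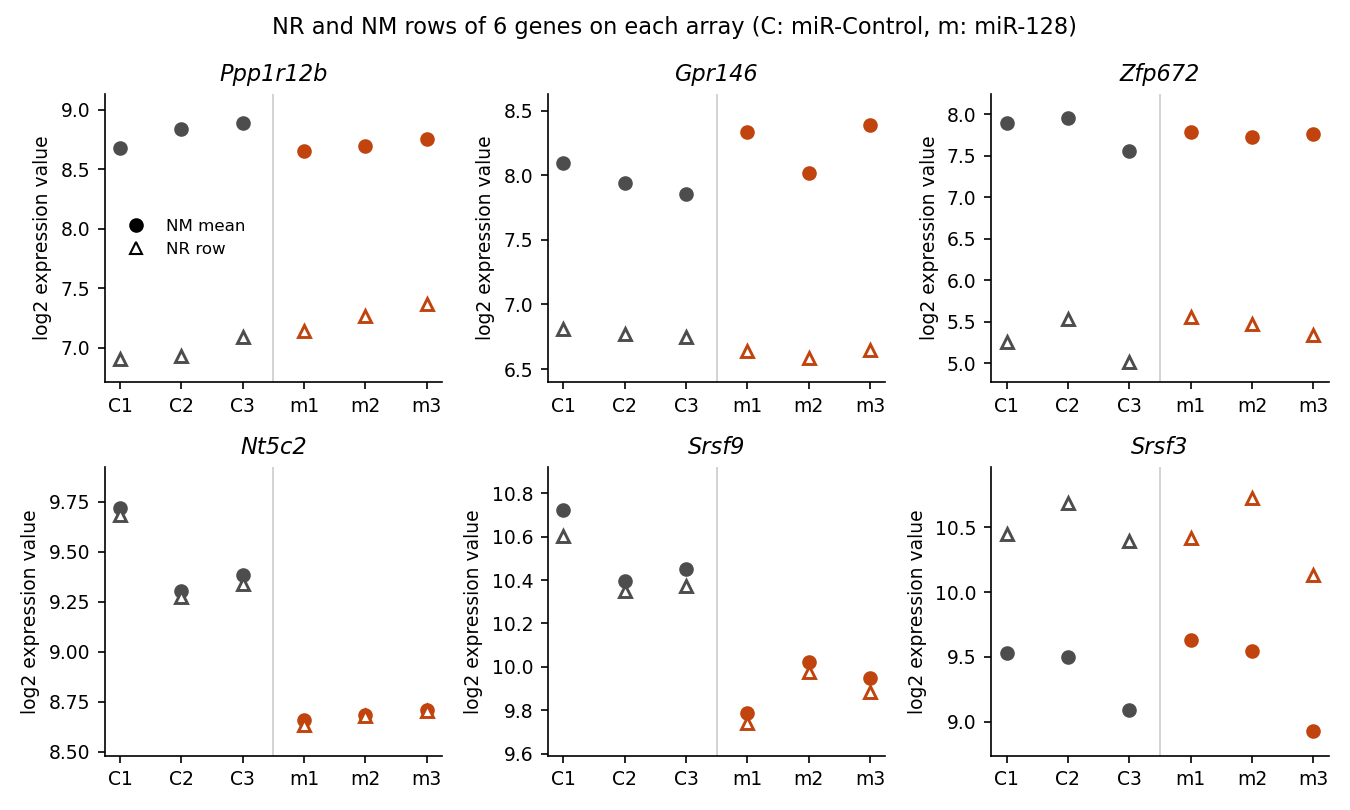
Log2 values of the NR row (open triangles) and of the NM mean (filled circles) of 6 genes on each array, with C1 to C3 for miR-Control replicates 1 to 3 (grey) and m1 to m3 for miR-128 replicates 1 to 3 (red). In Nt5c2 and Srsf9 both kinds of row are lower with miR-128 by nearly the same amount, in Ppp1r12b and Gpr146 the NR row and the NM mean part, and in Srsf3 both move between arrays without separating the groups.

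Coupling to NMD is best known for splicing factors. SR proteins and related factors limit their own levels by including exons with a premature stop codon. Whether the NR rows described here stand for such transcripts was not checked. A list of 29 such splicing factors shared 5 genes with the members: Clk1, Luc7l, Srsf3, Srsf7 and Tardbp. A list of small nucleolar RNA hosts added Taf1d. The lists of NMD factors, of known NMD substrates, of RNA decay and exosome genes and of reported miR-128 targets shared 0 genes with the members.

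Srsf3, an SR protein of exon inclusion and messenger RNA export, had an NR row (NR_036613) at 10.45, 10.69 and 10.40 with miR-Control against 10.42, 10.73 and 10.13 with miR-128. Its NM row was at 9.53, 9.50 and 9.09 with miR-Control against 9.63, 9.54 and 8.93 with miR-128. The NR minus NM difference was 0.92, 1.19 and 1.30 with miR-Control against 0.78, 1.18 and 1.202 with miR-128. It varied more between arrays of a group than between the groups, with a change of -0.08 and a 95% interval of -0.47 to 0.31.
Srsf7, a related SR protein, had differences of -0.71, -0.64 and -0.65 with miR-Control against -0.67, -0.69 and -0.75 with miR-128, a change of -0.04 (95% interval -0.12 to 0.04). Clk1, a kinase that phosphorylates SR proteins, had 2 NR rows that changed by 0.015 (SE 0.011) and -0.0030 (SE 0.023). Luc7l, a component linked to the U1 particle, had 2 at 0.010 (SE 0.014) and 0.0055 (SE 0.024).
Tardbp, which encodes the RNA-binding protein TDP-43, was at -0.012 (SE 0.049), and Taf1d, a subunit of the RNA polymerase I selectivity factor and a small nucleolar RNA host, at 0.04 (SE 0.095). The groups overlap in all 8 of these differences, and all had an adjusted p of 0.971 or more in limma.

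**Figure D4:**
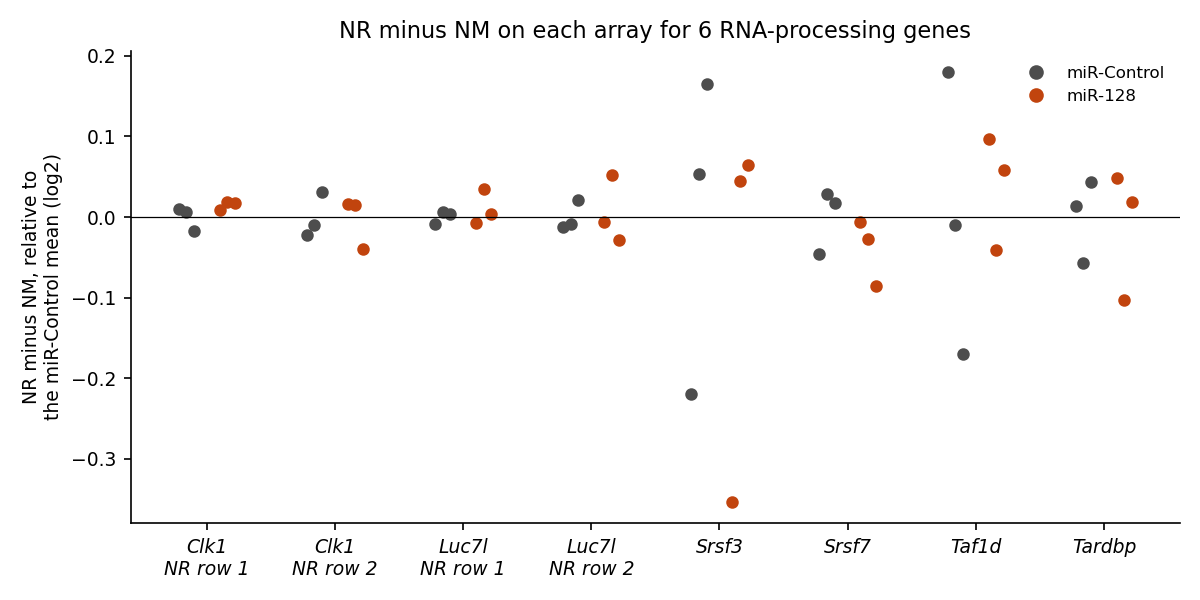
NR minus NM on each array (y axis, log2, relative to the mean of the 3 miR-Control arrays) for the 8 NR rows of Clk1, Luc7l, Srsf3, Srsf7, Taf1d and Tardbp, miR-Control in grey and miR-128 in red. The 2 groups overlap in each row, and Srsf3 and Taf1d spread most within a group.

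The 154 genes were also sorted by role into 10 groups that cover 100 of them, chosen with their values known and used here for description. The 15 splicing and RNA-binding genes had 18 NR rows, 9 higher and 9 lower relative to NM, with a median of 0.00024 and a range from -0.08 for Srsf3 to 0.07 for Sra1. Sra1, a gene known both for a steroid receptor coactivator RNA and for a protein, had differences of 0.026, 0.086 and 0.11 with miR-Control against 0.14, 0.11 and 0.18 with miR-128. These groups overlap by a small margin. Both the NR row of Sra1, at -0.22, and its NM mean, at -0.28, were lower with miR-128. Zfp326, a subunit of a complex that couples splicing to transcription elongation, was at 0.05 and Zc3h14, a poly(A)-binding protein, at -0.02, and the groups of both do not overlap.

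Srsf9, another SR protein, had an NR row only 0.072 from its NM row, so the 2 rows may share most of their probes. Neither passed the test. The NR row read 10.60, 10.35 and 10.37 with miR-Control against 9.74, 9.98 and 9.88 with miR-128, and its NM row 10.72, 10.40 and 10.45 against 9.79, 10.02 and 9.95. On each miR-128 array both rows lay below all controls. The NR row differed by -0.58 (SE 0.12) and the NM row by -0.60 (SE 0.12), and limma's adjusted p was 0.340 for both. The difference between them changed by 0.028 (95% interval -0.023 to 0.080).

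The 4 rows of Nt5c2, a cytosolic nucleotidase that acts on purine monophosphates, had the largest differences of all member rows. Its NR row read 9.68, 9.28 and 9.34 with miR-Control against 8.64, 8.68 and 8.71 with miR-128. All 3 miR-128 arrays lay well below all controls and close to each other. The NR row differed by -0.76 (SE 0.13), or 1.69-fold, and the 3 NM rows by -0.78 to -0.80, up to 1.74-fold, each with an adjusted p of 0.201 in limma.
The NR minus NM difference of Nt5c2 changed by 0.024 (SE 0.011), on groups that do not overlap. The nearest NM row lay at a distance of 0.011, so these 4 rows hardly count as separate measurements. Under limma's array weights, which gave miR-Control replicate 3 the least weight, all 4 rows passed with an adjusted p of 0.0453.

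Over all member rows, tested with limma on the whole table of 32025 rows, 0 of 441 passed an adjusted p of 0.05, and the share over all rows was 0%. The lowest adjusted p was 0.201, that of Nt5c2. At an unadjusted p under 0.05 there were 39 member rows, or 8.84%, against 7.15% of all rows, 31 of them lower and 8 higher with miR-128. The 39 became 13 when miR-128 replicate 1 was left out, and 62 when miR-Control replicate 3 was. Over all rows 3.11% were lower at that p and 4.04% higher. The groups did not overlap in 77 member rows, or 17.5%, against 11.9% of all rows. Of these, 45 were lower, or 10.2% against 4.87% of all rows, and 32 were higher, or 7.26% against 6.98%. The 39 rows came from 18 genes, since rows of a gene repeat each other, and the counts are of rows that are not independent.

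In 10 of those 18 genes both an NR and an NM row had such a p, in 4 an NR row alone and in 4 an NM row alone. By the NR row where it had such a p, and otherwise by the NM row, 13 genes were lower and 5 higher. A gene was counted by the smallest p of its rows, so the share of all rows is no background for it. No share over all genes is given here, so the count and its split are descriptive. The genes with both were Afg3l1, Arfrp1, Dctd, Enoph1, Fam172a, Lrp8, Nt5c2, Sec16b, Srsf9 and Tsr2. Those with an NM row alone were Gpr146, Minar2, Sra1 and Zfp57. Those with an NR row alone were Ankrd10, Ndufs6, Ppp1r12b and Pradc1. An NR row past this p beside an NM row that is not does not show that they differ, and for these 4 genes the difference itself gave an adjusted p of 0.616 for Ppp1r12b and 0.971 for the other 3.

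Among the 14 genes of metabolism, Dctd, the deaminase that supplies deoxyuridylate for thymidylate synthesis, had an NR row at 9.27, 9.76 and 9.33 with miR-Control against 9.004, 9.24 and 9.04 with miR-128. Its NR row differed by -0.36 (SE 0.15) and its 3 NM rows by -0.43 to -0.44. Enoph1, an enzyme of methionine salvage, had an NR row at 9.35, 9.38 and 9.11 with miR-Control against 8.90, 9.05 and 8.83 with miR-128, a difference of -0.35 (SE 0.12) against -0.43 and -0.44 in its NM rows. In both genes the NR row was lower on all miR-128 arrays and the NM rows were lower by slightly more.
The resulting NR minus NM changes were 0.08 (SE 0.03) for Dctd and 0.08 (SE 0.03) for Enoph1, with overlapping groups and unadjusted p of 0.0572 and 0.0516 in limma. The group as a whole had 9 NR rows higher and 5 lower relative to NM, with a median of 0.0036.

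The 5 genes of the ribosome, tRNA and nucleolus had 4 NR rows lower with miR-128 and the same number of NM means lower, with a median NR change of -0.14 and a median NM change of -0.18. Tsr2, a chaperone of a small ribosomal subunit protein, had an NR row at 9.51, 9.33 and 9.10 with miR-Control against 8.64, 8.89 and 9.02 with miR-128, a change of -0.46 (SE 0.14), beside -0.50 (SE 0.14) in its NM rows. The NR minus NM difference changed by 0.04 (SE 0.02).

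Of 17 genes of transcription and chromatin, with 19 NR rows, 9 NR rows were higher and 10 lower relative to NM, with a median of -0.0038. Yaf2, a partner of Polycomb RING proteins, was at -0.06 (SE 0.03) with groups that overlap. Rreb1, a Ras-responsive zinc finger factor, had 2 NR rows at -0.07 (SE 0.05) and -0.11 (SE 0.06). Suv39h2, a histone H3 methyltransferase, was at 0.012 (SE 0.022).

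The 7 genes of DNA replication and repair had 8 NR rows, 4 higher and 4 lower relative to NM, with a range of -0.04 for Faap20 to 0.06 for Orc4. Orc4 and Orc6 encode subunits of the origin recognition complex. Faap20, a subunit of the Fanconi anemia core complex, had differences of -0.15, -0.18 and -0.18 with miR-Control against -0.19, -0.24 and -0.19 with miR-128, which do not overlap, with an unadjusted p of 0.0970 in limma. Polg2, the accessory subunit of the mitochondrial DNA polymerase, was at 0.05 (SE 0.02).

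The 7 mitochondrial genes had 5 NR rows and 5 NM means lower with miR-128. Ndufs6, a subunit of respiratory complex I, had an NR row at 7.70, 7.36 and 7.51 with miR-Control against 7.23, 7.32 and 7.23 with miR-128, all 3 of them below every control. Its NR row differed by -0.27 (SE 0.12) and its NM row by -0.13 (SE 0.15), and the change of the difference, -0.13, had a 95% interval of -0.39 to 0.12. Afg3l1, a mitochondrial protease gene, had -0.28 in both its NR row and its NM row.

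The 11 genes of ubiquitin, SUMO and protein turnover had 3 NR rows higher and 8 lower relative to NM, with a median of -0.0061. Fbxo34, an F-box gene of the ubiquitin pathway, had the lowest value. Its NR row read 7.23, 7.54 and 7.51 with miR-Control against 7.28, 7.45 and 7.51 with miR-128, which overlap, and its NM mean differed by 0.13. In the 8 genes of membrane traffic and peroxisomes, 5 of 10 NR rows were lower relative to NM. Rabggtb, a subunit of Rab geranylgeranyl transferase whose introns hold small nucleolar RNAs, had 3 NR rows at 0.0028, -0.022 and 0.020. Arfrp1, a GTPase of the Golgi, was lower in its NR row at -0.36 (SE 0.12) and in its NM rows at -0.36 to -0.40.

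The 9 genes of neural development and signalling had 6 NR rows higher and 3 lower relative to NM, and Gpr146 was the one at the low end. Lrp8, a reelin receptor, had an NR row at 9.14, 9.17 and 8.94 with miR-Control against 8.65, 8.75 and 8.93 with miR-128, a change of -0.30 (SE 0.12), beside -0.30 (SE 0.13) in its NM row, so that the difference changed by -0.0027 (SE 0.022). Pafah1b1, the lissencephaly gene Lis1 and a regulator of dynein, had an NR row at 0.18 (SE 0.13) and an NM row at 0.17 (SE 0.13). Its difference changed by 0.0081 (95% interval -0.014 to 0.030).
The 7 immune genes had 4 of 8 NR rows higher relative to NM, from -0.05 for Ccl25 to 0.10 for Tslp. The 54 genes in no role group had 58 NR rows, 26 higher and 32 lower. Among them 4930523C07Rik was at -0.24 (SE 0.11) on overlapping groups, with the lowest values, -0.53 and -0.71, on miR-128 replicates 1 and 3 and -0.27 on replicate 2.

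Where a gene had more than 1 distinct NR row, which was so in 12 genes, the rows of a gene went the same way in some and opposite ways in others. Both NR rows of Tmem179b were higher relative to NM, at 0.09 (SE 0.06) and 0.022 (SE 0.012), and both of Rreb1 were lower. The 2 of 1700001O22Rik had opposite signs, at 0.04 (SE 0.03) and -0.03 (SE 0.04), within their errors of 0. Of the 17 NR rows whose groups do not overlap, 9 were higher and 8 lower relative to NM, and 12 of them changed by less than 0.05.

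The decay machinery itself was described from a list of 21 NMD and exon junction factors, of which 20 had a row. In this and the other lists each gene was counted by its row of highest mean. In limma 0 of 20 passed an adjusted p of 0.05, and 2 of 20, Upf3a and Upf3b, had an unadjusted p under 0.05, against 7.15% of all rows. Of the 20, 11 were lower and 9 higher with miR-128, with a median of -0.08, where all rows had a median of 0.02. Over all rows, which were not picked by level, 43.2% were lower. Upf1, the helicase at the centre of NMD, read 9.67, 9.51 and 9.61 with miR-Control against 9.31, 9.06 and 9.56 with miR-128, which overlap, and differed by -0.29 (95% interval -0.60 to 0.03). Casc3, an exon junction factor, read 9.58, 9.37 and 9.60 against 9.68, 9.54 and 9.58, which overlap, and differed by 0.09 (95% interval -0.16 to 0.34). Upf3b, which bridges the exon junction complex to UPF2, read 7.85, 7.68 and 7.49 against 7.001, 7.26 and 7.12, which do not overlap. It differed by -0.55 (95% interval -0.84 to -0.25), with an adjusted p of 0.391 in limma. Upf3a read 8.91, 8.90 and 8.94 against 8.21, 8.49 and 8.73, which do not overlap either. It differed by -0.44 (95% interval -0.75 to -0.13), with an adjusted p of 0.532 in limma. Of 21 measured NMD substrates 13 were lower and 8 higher, with a median of -0.07. In limma 5 of the 21 had an unadjusted p under 0.05, against 7.15% of all rows, and 0 an adjusted p of 0.05. The lists overlap, so their counts are not separate. Upf1, Upf2, Upf3b, Smg1 and Smg5 are on both the factor and the substrate list, and Upf3b is under that unadjusted p in both. The 29 splicing factors with NMD-coupled exons had 23 lower and 6 higher values, with a median of -0.10. Of these 29, 4 had an unadjusted p under 0.05 in limma, against 7.15% of all rows, and 0 passed the adjusted threshold. Of 29 measured genes reported as miR-128 targets, which include Upf1 and Casc3, 20 were higher and 9 lower, with a median of 0.07. Of 25 measured small nucleolar RNA hosts 4 were higher and 21 lower, with a median of -0.13. Of 31 RNA decay and exosome genes 12 were higher and 19 lower, with a median of -0.06. In limma 7 of 29, 6 of 25 and 2 of 31 genes of these lists had an unadjusted p under 0.05, against 7.15% of all rows. In each list 0 passed an adjusted p of 0.05. All lists were chosen with earlier results of these data known, so their counts are descriptive.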

How the data were processed

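The 6 arrays were grouped and numbered by their titles. Per the submitters' processing notes, the authors made the deposited log2 values with RMA and the affy package, which corrects background, normalizes arrays and summarises each probe group. No source used here gives versions, the probe grouping or the genome build, and rows of a gene may share probes.

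Rows were named through the RefSeq gene table of GRCm38.p6 (25343 of 32025; 1230 of 1360 NR rows). Identical rows of a gene were counted once. On each array the mean of the distinct NM rows was subtracted from every distinct NR row of that gene, and NM rows likewise against the other NM rows of their gene. limma 3.58.1 in R 4.3.3 (lmFit and eBayes, two-sided, no low-value filter) compared miR-128 with miR-Control over all rows and over all differences, with Benjamini-Hochberg adjustment. ± and SE use 3 arrays a group. Both tests were also run on simulated data with independent rows, which does not cover rows that share probes.

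Named genes are the 10 differences of smallest p on each side, the 3 NR and 3 NM rows of smallest p on each side, members of the 6 fixed lists and any call (0); the rows beyond distance 1, other unadjusted p under 0.05, and the role group examples were added after their values were seen. Members and lists were chosen with earlier results of these data known. Equal replicate numbers did not deviate together in every pair. Alternatives left out each array in turn, changed normalization, weights, moderation, filter and the NM summary, or added a replicate block.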

Additional observations from a re-analysis of the deposited data

How the results depend on the processing

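The count of NR minus NM differences past the threshold was 0 under all 18 alternatives tried, and the count of member rows was 0 under 12 of 13. Among the 18, centring arrays on their medians cancels in a within-array difference, so its result there was fixed in advance. The same holds for the differences among the 660 values below. With array weights 4 member rows passed, all of Nt5c2. With the replicate number as a block 0 passed in either test, and 40 member rows and 9 differences had an unadjusted p under 0.05. Shares over all rows or all differences are not given for this setting or for arrays left out, so such counts are descriptive. Deviations of same-numbered arrays correlated at -0.0028, 0.17 and 0.05 over rows and at 0.05, 0.016 and -0.07 over differences. Same-numbered arrays thus shared little deviation, but such values cannot tell whether they shared a preparation. Leaving out 1 array at a time gave 13 (without miR-128 replicate 1) to 62 (without miR-Control replicate 3) member rows at that p and 3 to 9 differences. The median NR minus NM change ran from -0.0033 to 0.0050 over these, and was 0.0050 without miR-Control replicate 3. In them Ppp1r12b ran from 0.34 to 0.42 and Gpr146 from -0.53 to -0.37. Of 660 values of named genes and rows under alternatives 639 kept direction and side of the threshold, 4 (Nt5c2 with array weights) passed it, at -0.89, -0.91, -0.91 and -0.90, and 17 changed sign, all at adjusted p over 0.95, near 0 in size. Beside single arrays left out, these were Clk1 with quantile normalization (0.0021) and array weights (0.012), Luc7l with quantile normalization (-0.0025), Tardbp with array weights (0.023) and with the NM row of highest mean (0.00085), and Sec16b with that row (-0.0066). With single arrays left out, ranges were -0.014 to 0.015 and -0.0020 to 0.019 for Clk1 and Luc7l, -0.018 to 0.023 for the other Luc7l row, -0.19 to 0.055 for Srsf3, -0.047 to 0.13 for Taf1d, -0.043 to 0.033 for Tardbp and -0.023 to 0.0050 for Fam172a. The causes were not tested. Restricting all differences to distances of 0.1 or more, chosen after seeing the data, also gave 0. With 3 arrays a group and no detection value used, faint rows cannot be told from background.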
